A study of Mus musculus with 4 samples.

Results

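MHC class II is the antigen-presenting complex read by CD4 T cells, and 10 of its genes were followed here through single cells of the young mouse heart. They are the invariant chain Cd74, the chains of the classical molecules (H2-Aa, H2-Ab1 and H2-Eb1), the peptide-loading chains H2-DMa, H2-DMb1 and H2-DMb2, the chains of the loading inhibitor H2-O (H2-Oa and H2-Ob), and Ciita, the transcriptional switch of the family. Members were found by symbol among the 31053 genes of the count matrices, and each of the 10 was found once. The data were 4 droplet libraries of hearts from 6-week-old offspring, 2 from dams fed a diet high in resistant starch (high_fibre) and 2 from dams fed a diet low in it (control_diet) while pregnant and lactating. All offspring ate standard chow from weaning at 3 weeks, so the groups differ by what the mother ate and not by their own food at sampling. Tissue was digested with collagenase IV (2 mg/mL) together with dispase II (1 mg/mL), and nucleated, living cells with metabolic activity were taken by flow cytometry. Neither strain, sex nor the number of animals in a library is given in the labels, and nothing there says that libraries are separate animals. Spread between libraries may therefore be technical.

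Class II molecules are built in the endoplasmic reticulum, where the invariant chain fills the groove of the alpha and beta chains and leads them to endosomes. Proteases such as cathepsin S trim it there, H2-DM swaps the remaining fragment for antigen peptide, and H2-O, best known from B cells, restrains H2-DM. Professional antigen-presenting cells (B cells, dendritic cells and many macrophages) make these proteins at all times under the control of CIITA, which docks on factors bound to the X and Y boxes of class II promoters. Other cells can gain the pathway under interferon gamma. In the mouse heart, resident macrophages that carry Timd4, Lyve1 or Folr2 and macrophages that carry Ccr2 are known as separate populations, the latter fed from blood monocytes.

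Of the 10 genes, 8 lie within 224 kb of chromosome 17 (GRCm38, GENCODE M21). H2-Oa is at chr17:34092340-34095234, H2-DMa at chr17:34119541-34139101, H2-DMb2 at chr17:34143307-34151555 and H2-DMb1 at chr17:34153072-34160230. H2-Ob follows at chr17:34238903-34254414, H2-Ab1 at chr17:34257689-34269419, H2-Aa on the reverse strand at chr17:34282744-34287823, and H2-Eb1 at chr17:34305867-34316674. Ciita lies on chromosome 16 (chr16:10480059-10528418), and Cd74 on another chromosome, given with its levels below. H2-DMa overlaps Brd2 on the other strand and CR974462.3 on its own strand, while H2-Eb1, H2-Oa and Ciita each overlap a gene on the other strand. H2-DMb1 and H2-DMb2 are neighbouring copies of one another. How the counting treated strand and reads shared by such copies is not given in the sources used here, so values of these genes carry that uncertainty.

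Promoter stretches of 6 members are shown because the levels below part these genes into those shared by B cells and macrophages and those of B cells, with the copies H2-DMb1 and H2-DMb2 on opposite sides. RefSeq windows (GRCm38.p6, 250 bases before to 50 after a start) were at hand for 7 members: H2-Aa, H2-Eb1, H2-DMa, H2-DMb1, H2-DMb2, H2-Oa and H2-Ob. Windows for Cd74, H2-Ab1 and Ciita were not used here. Both strands were searched for the Y box letters TGATTGG and the X box letters (AAC, any 2 bases, then ATGATG), which do not overlap each other, and the letters were chosen after the windows had been seen. Each stretch of 63 bases reads 5′ to 3′ on the gene's strand, with the matches in capitals. They are chr17:34305756-34305818 (+) for H2-Eb1, chr17:34153078-34153140 (+) for H2-DMb1, chr17:34145107-34145169 (+) for H2-DMb2, chr17:34238796-34238858 (+) for H2-Ob, chr17:34287861-34287923 (-) for H2-Aa and chr17:34092284-34092346 (+) for H2-Oa.
H2-Eb1: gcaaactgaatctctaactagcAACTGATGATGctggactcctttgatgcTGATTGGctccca
H2-DMb1: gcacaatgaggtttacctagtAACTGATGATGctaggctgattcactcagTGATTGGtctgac
H2-DMb2: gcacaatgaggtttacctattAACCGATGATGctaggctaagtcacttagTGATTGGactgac
H2-Ob: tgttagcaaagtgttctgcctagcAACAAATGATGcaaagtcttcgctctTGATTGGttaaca
H2-Aa: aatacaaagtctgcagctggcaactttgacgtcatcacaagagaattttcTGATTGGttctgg
H2-Oa: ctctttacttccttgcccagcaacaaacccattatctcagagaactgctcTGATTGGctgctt
The Y box letters were in the windows of 6 of the 7 members, the exception being H2-DMa with its 2 windows. They began 45 to 92 bases before the RefSeq start of the window. RefSeq and GENCODE starts differ for some members: the H2-DMb1 and H2-DMb2 stretches and both H2-DMa windows lie inside the GENCODE spans given above. The X box letters preceded the Y box letters in H2-Eb1, H2-DMb1, H2-DMb2 and H2-Ob, with 15 to 18 bases between the matches. Among all 32851 windows of the same length, 7.82% held the Y box letters, 0.137% the X box letters and 0.0274% (9 windows) both. The H2-DMb1 and H2-DMb2 stretches shared 57 of 63 letters. A match is a description of these letters and not a shown binding site.

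The matrices held 26765 barcodes with 27577599 to 69600492 UMIs (unique molecular identifiers, counted molecules) per library, and 22346 cells were kept. Median depths were 5737 and 5994 UMIs per cell in high_fibre 1 and 2, and 7675 and 7403 in control_diet 1 and 2. Some barcodes recurred between libraries: of the kept cells, 771, 768 and 476 in high_fibre 1, high_fibre 2 and control_diet 1 and 755 of 2633 in control_diet 2 (28.7%) had a barcode also deposited for another library. In control_diet 2 these cells held 50.4% of all UMIs, against 2.13% to 3.56% in the other libraries. Where both copies passed a gate, it was the same gate in 95.5% to 99.7% of pairs, and a high_fibre 1 copy had a median of 0.0358 UMIs for each UMI of its control_diet 2 copy (quartiles 0.0342 to 0.0375). Values below are from all kept cells. Without any shared barcode, the mean level of Cd74 was 1.07 times as high in macrophages and 0.982 times as high in B cells, and with only the deepest copy kept it was 1.003 and 0.997 times as high.

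Cells were assigned by genes that are no members: macrophages by C1qa (3387 cells), B cells by Cd79a (905), endothelial cells by Pecam1 with Cdh5 (6448), fibroblasts by Col1a1 with Dcn (6577), pericytes by Kcnj8 with Vtn (891) and T cells by Cd3e (328). Each needed at least 2 UMIs over its gate genes. A cell that passed several gates (583) or none (3227) was left out of these types. Other markers bore out the names: 86.2% to 100% of the cells of a gate and library held at least 3 of 3 to 10 further markers of that type. Levels are UMIs per 1000000 UMIs (CPM) of the summed cells of a gate in 1 library. Counted molecules are 3′ tags and are not scaled by transcript length, so no level needed a length correction.

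Cd74, at chr18:60803848-60812652, was the member with the highest level, and it was high in B cells and macrophages. In B cells it stood at 15519 and 16656 CPM in high_fibre 1 and 2 and at 16439 and 19248 CPM in control_diet 1 and 2. Macrophages had 12678 and 9647 CPM in the high_fibre libraries and 11094 and 11760 CPM in the control_diet libraries. The B cell range lay above the macrophage range in full, 16965 ± 1600 against 11295 ± 1276 CPM (SD, n = 4 libraries each). Every other gate was lower by over 1 order of magnitude on average: 513 CPM in T cells, 55.6 in endothelial cells, 45.4 in pericytes and 21.7 in fibroblasts. The library ranges of neighbours among these 4 overlapped, but within each library fibroblasts were lowest. The order of T cells, endothelial cells and pericytes changed between libraries. At equal depth, with every cell thinned to 1000 UMIs, 99.5% to 100% of B cells and 67.8% to 76.7% of macrophages held a Cd74 UMI.

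**Figure D1:**
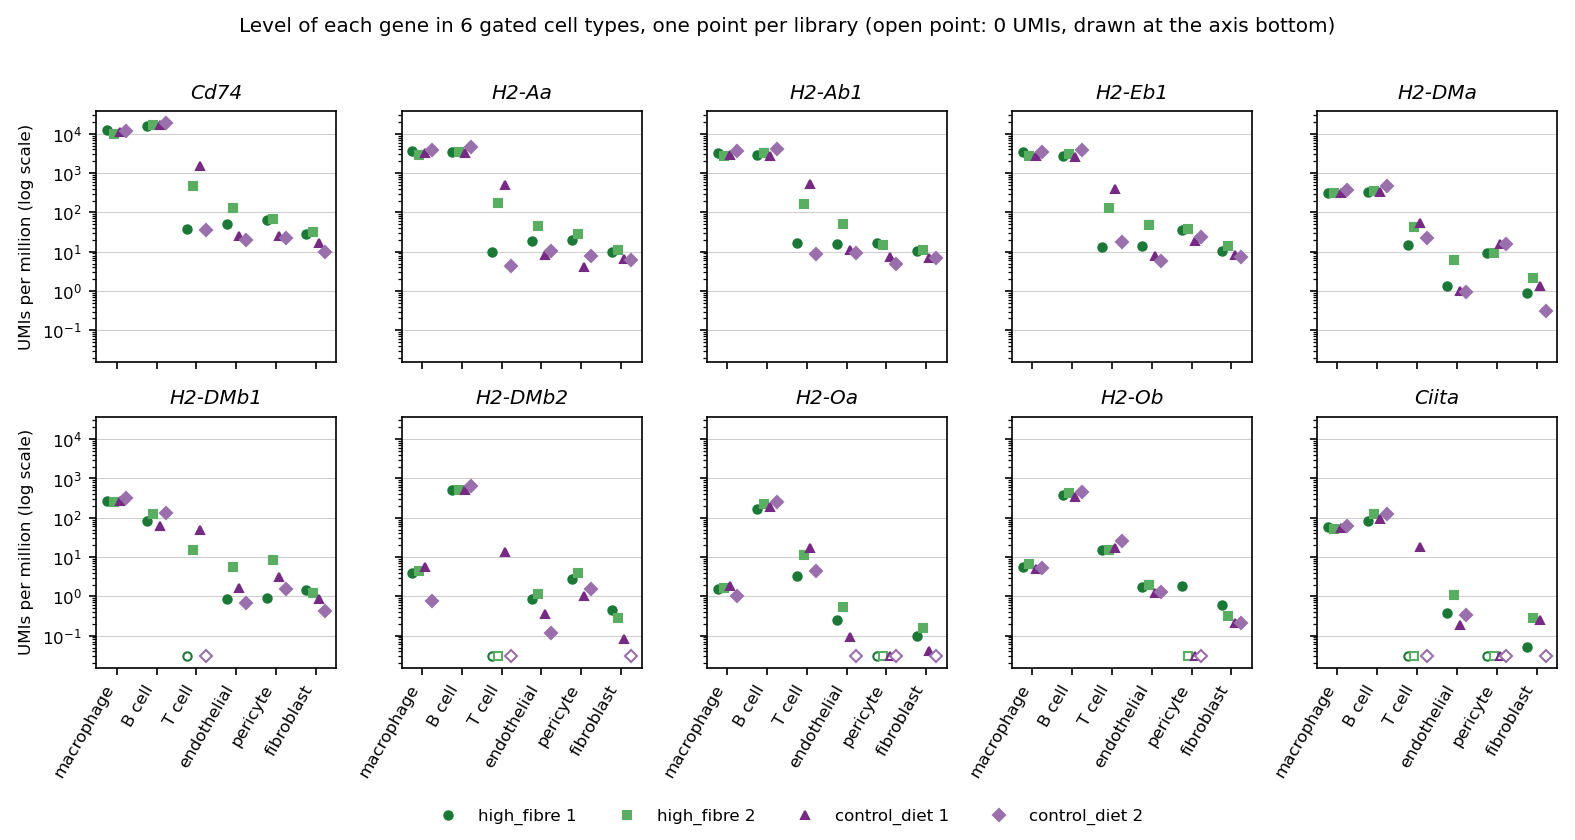
Level of the 10 members (UMIs per 1000000, log axis) in 6 gated cell types, with 1 point for each of the 4 libraries and an open point at the axis bottom for a library with 0 UMIs. Cd74 and the classical chains sit together at the top in macrophages and B cells, while H2-DMb2, H2-Oa and H2-Ob are high in B cells alone.

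The classical chains, which form the peptide groove shown at the cell surface, were level between B cells and macrophages. H2-Aa averaged 3696 ± 637 CPM in B cells and 3428 ± 368 in macrophages. H2-Ab1 averaged 3277 ± 668 and 3109 ± 395 CPM, and H2-Eb1 3080 ± 575 and 3099 ± 411 CPM (SD, n = 4 libraries each). The ranges of the 2 types overlapped for all 3 genes. Relative to the invariant chain the types did differ: H2-Aa UMIs came to 28.7 to 32.3 per 100 Cd74 UMIs in macrophages and to 19.4 to 24.1 in B cells. H2-Ab1 came to 25.7 to 30.5 and 16.7 to 21.9, and H2-Eb1 to 25.0 to 30.1 and 15.7 to 20.2. No B cell library reached the lowest macrophage library in any of the 3 ratios.

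The loading chains split the types. H2-DMa, the alpha chain of H2-DM, was level (365 ± 70.2 CPM in B cells, 324 ± 30.9 in macrophages). Its partner H2-DMb1 was the chain of macrophages, at 262, 245, 262 and 319 CPM in high_fibre 1, high_fibre 2, control_diet 1 and control_diet 2, against 81.4, 125, 60.3 and 130 CPM in B cells. The copy H2-DMb2 was the chain of B cells, at 511, 498, 512 and 632 CPM, against 3.94, 4.36, 5.61 and 0.760 CPM in macrophages. Of all H2-DM beta chain UMIs, H2-DMb2 thus gave 80.0% to 89.5% in B cells and 0.237% to 2.10% in macrophages. Of B cells 68.1% to 87.1% held an H2-DMb2 UMI, of macrophages 1.00% to 3.99%, and of endothelial cells 0.0833% to 0.430%.

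The chains of H2-O were B cell genes as well. H2-Oa stood at 171, 228, 189 and 250 CPM in B cells and at 1.52, 1.66, 1.83 and 1.01 CPM in macrophages, in the same order of libraries. H2-Ob stood at 390, 434, 330 and 446 CPM in B cells and at 5.66, 6.58, 5.09 and 5.32 CPM in macrophages. T cells came next for both genes, ahead of macrophages in every library: H2-Ob at 15.1, 14.8, 17.1 and 26.3 CPM and H2-Oa at 3.35, 11.1, 17.1 and 4.39 CPM. Those T cell values rest on 6 to 13 H2-Ob UMIs and 1 to 13 H2-Oa UMIs per library. In control_diet 1, 3 T cells with dendritic markers held some of them, and without such cells H2-Ob there was at 8.62 CPM and H2-Oa at 12.9 CPM, still above macrophages. Ciita, the regulator, was higher in B cells (84.0, 124, 91.3 and 126 CPM) than in macrophages (57.6, 51.0, 53.6 and 60.8 CPM) and was not seen in pericytes of any library.

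B cells and macrophages were compared with edgeR on UMIs summed per library and gate, with the library as a block. Neither gate uses a member. Of the 10 members, 5 were called higher in B cells (Cd74, Ciita, H2-DMb2, H2-Oa and H2-Ob) and 1 lower (H2-DMb1). Of all 10629 genes tested, 28.6% were called higher and 35.6% lower, 64.2% in all, so 6 of 10 is not far from the share among all genes. The size of the changes was another matter: the log2 fold of B cells over macrophages was 6.91 (SE 0.38, edgeR adjusted p = 0.000187) for H2-DMb2. For H2-Oa it was 6.87 (SE 0.17, edgeR adjusted p = 2.79e-63). For H2-Ob it was 5.98 (SE 0.14, edgeR adjusted p = 1.24e-65). H2-DMb1 fell by 1.65 on the log2 scale (SE 0.14, edgeR adjusted p = 5.97e-11), higher in macrophages in all 4 libraries. Cd74 rose by 0.46 (SE 0.06, edgeR adjusted p = 1.28e-08) and Ciita by 0.76 (SE 0.13, edgeR adjusted p = 1.32e-07). H2-Aa (-0.03), H2-Ab1 (-0.06), H2-Eb1 (-0.14) and H2-DMa (0.03) did not pass, with edgeR adjusted p from 0.0721 to 0.814. H2-Eb1 was called lower in B cells without high_fibre 2 (-0.20), with no filter on low counts (-0.21) and without shared barcodes (-0.28, edgeR adjusted p = 0.00603).

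Other genes of the class II pathway (proteases, costimulators, ubiquitin ligases and transcription factors, 22 listed) were called higher in B cells for 6 and lower for 10 of the 21 tested. The lower ones include lysosomal proteases: Ctsb, a cathepsin, had 70.0 CPM in B cells and 2261 in macrophages, and Lgmn, the asparaginyl endopeptidase, 53.6 and 679 CPM. Ctsd had 45.8 and 381 CPM, and the transcription factor Spi1 95.9 and 391 CPM. Class I genes were called higher for 8 and lower for 4 of 17, with Tap1, a peptide transporter subunit, at 88.4 CPM in B cells and 40.4 in macrophages and B2m, the class I light chain, at 1128 and 1713 CPM. Of the interferon gamma response list 3 were higher and 11 lower of 17 tested. The chemokine Cxcl10 had 0.626 CPM in B cells and 135 in macrophages, and the receptor chain Ifngr1 83.1 and 297 CPM. Medians on the log2 scale were -0.18, 0.12 and -1.09 for these lists, 0.25 for the members and -0.08 for all genes.

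Most of the class II message of the heart sat in a small number of cells. The invariant chain and the 3 classical chains together (called class II UMIs from here on) came to 895860 UMIs in kept cells. Macrophages held 77.9% of them, B cells 10.7%, cells that passed no gate 5.41% and cells that passed several 4.60%. Endothelial cells, 28.9% of all kept cells, held 0.528%, fibroblasts 0.458%, T cells 0.312% and pericytes 0.0487%. The cells with most such UMIs were ranked in each library: 50% of the total was reached with 192 of 6356 cells in high_fibre 1, 176 of 7546 in high_fibre 2, 133 of 5811 in control_diet 1 and 52 of 2633 in control_diet 2. That is 2.40% ± 0.441 of cells (SD, n = 4 libraries), and 8.23% ± 1.71 of cells held 90%. At the other end, 47.9% to 61.8% of cells had no class II UMI at all.

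**Figure D2:**
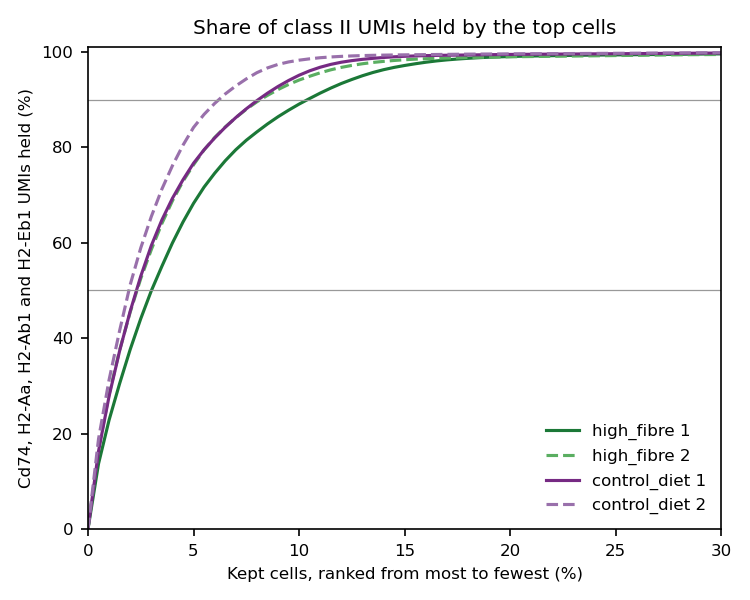
Cumulative share of class II UMIs (invariant and classical chains, y axis, %) held by the kept cells when ranked from the most to the fewest such UMIs (x axis, %, shown to 30%), with 1 line per library and grey lines at 50% and 90%. The 4 lines cross 50% between 1.97% and 3.02% of cells and 90% between 6.23% and 10.4% of cells.

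B cells were even in their class II load and macrophages were not. Per 10000 UMIs of a cell, the median class II load of B cells was 255, 280, 251 and 287 in high_fibre 1, high_fibre 2, control_diet 1 and control_diet 2, with quartiles of 204 and 315 in high_fibre 1. Macrophage medians were 134, 59.5, 84.3 and 157, with quartiles as far apart as 5.36 and 441 in high_fibre 1. Of macrophages, 9.46% to 13.3% had no class II UMI, although their median depth was 9129 to 12575 UMIs, while of B cells, at 3320.5 to 4565 UMIs, 0% to 0.452% had none. At 1000 UMIs in every cell, 45.3% to 55.3% of macrophages and 93.1% to 96.4% of B cells held at least 10 class II UMIs. That thinning left out 34 to 126 macrophages and 3 to 30 B cells per library.

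**Figure D3:**
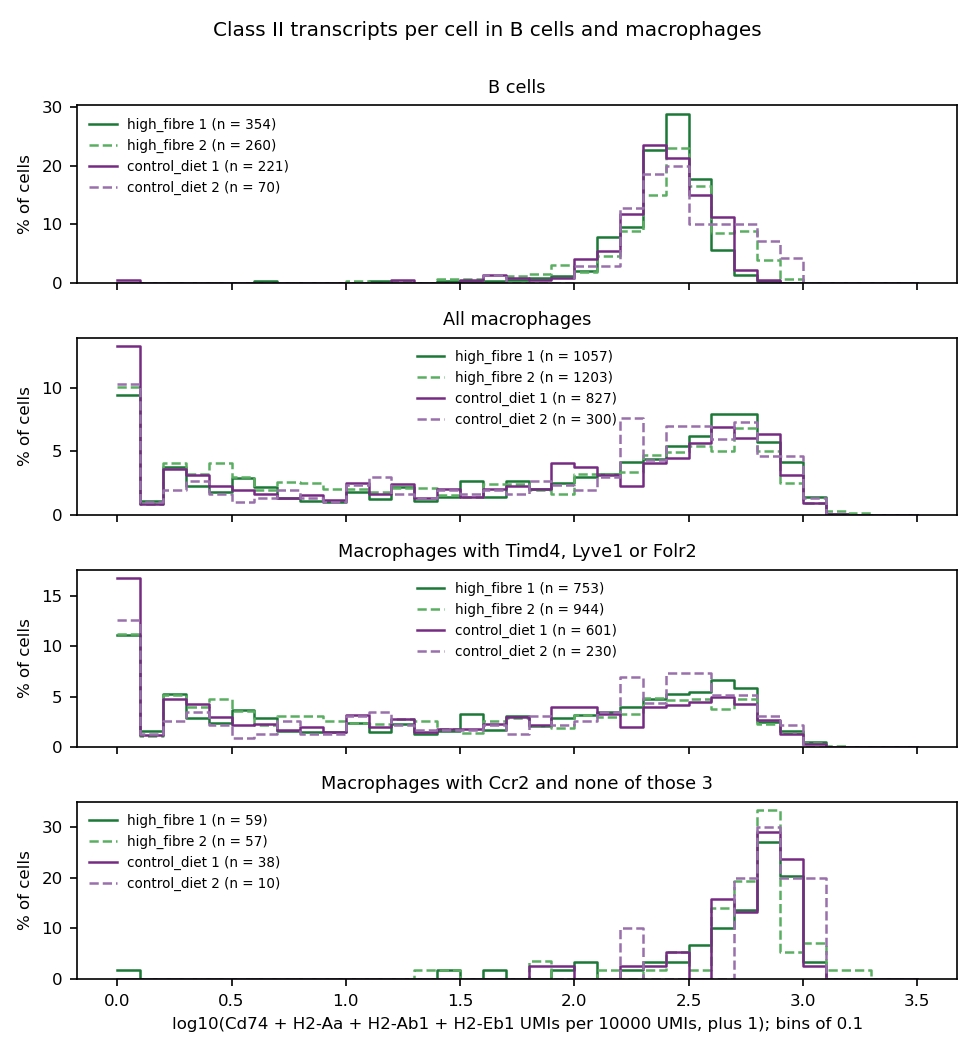
Distribution of the class II load per cell (log10 of class II UMIs per 10000 UMIs plus 1, bins of 0.1) as percent of cells, by library, in B cells, all macrophages and the macrophage subsets defined by Timd4, Lyve1 or Folr2 and by Ccr2. B cells and Ccr2 macrophages form a narrow peak on the right, whereas all macrophages and those with Timd4, Lyve1 or Folr2 spread from cells without any class II UMI to cells at the level of the B cells and above.

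The macrophage spread followed a split on genes that are no members. Macrophages with at least 1 UMI of Timd4, Lyve1 or Folr2 numbered 753, 944, 601 and 230 in the 4 libraries, and macrophages with Ccr2 and none of those 3 numbered 59, 57, 38 and 10. Their median depths were close, 9742 to 13478 and 8813 to 14940 UMIs. The median class II load per 10000 UMIs was 53.0, 22.5, 27.2 and 79.1 in the former and 638, 622, 676 and 750 in the latter, so no library of one subset reached the other. Macrophages with neither set of genes lay between them, with medians of 321 to 369. The Timd4, Lyve1 or Folr2 subset included 28, 69, 24 and 14 cells that also carried Ccr2. Their medians were 408, 346, 377 and 418, above those of the whole subset. Within the Timd4, Lyve1 or Folr2 subset the quartiles still ran from 1.24 to 213 in control_diet 1, so this subset held both cells with next to no class II and cells in the range of B cells, whose lower quartile was 193 in that library.

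All 10 members were called higher in Ccr2 macrophages than in Timd4, Lyve1 or Folr2 macrophages by edgeR with the library as a block. Over all 9793 genes tested, 7.13% were called higher and 13.9% in either direction. Cd74 was at 28771, 28667, 32623 and 36692 CPM in Ccr2 macrophages and at 8975, 7499, 7422 and 9286 CPM in the others, in the order high_fibre 1, high_fibre 2, control_diet 1, control_diet 2. Its log2 fold was 2.05 (SE 0.07, edgeR adjusted p = 1.30e-32), higher in 4 of 4 libraries. H2-Eb1 differed most among the classical chains, at 9025, 9674, 10583 and 14960 CPM against 2181, 1993, 1685 and 2596 CPM (log2 fold 2.49, SE 0.08, edgeR adjusted p = 1.47e-23). H2-Aa (2.23) and H2-Ab1 (2.29) rose with it.

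Loading chains and the regulator rose in Ccr2 macrophages too. H2-DMb1 was at 603, 793, 707 and 1206 CPM against 190, 199, 193 and 255 CPM (log2 fold 2.05, SE 0.09), and H2-DMa changed by 1.62 (SE 0.09). Ciita was at 150, 168, 151 and 269 CPM against 42.6, 40.8, 40.7 and 43.5 CPM (log2 fold 2.16, SE 0.14, edgeR adjusted p = 6.66e-20). H2-DMb2, H2-Oa and H2-Ob, the B cell members, were called as well but from few UMIs: 0 to 18, 0 to 10 and 3 to 20 per library in Ccr2 macrophages. The other 8 members did not overlap between the subsets (4.66% of all genes did not on this side), while H2-DMb2 and H2-Oa did, and control_diet 2 had no UMI of either among its 10 Ccr2 cells. Without high_fibre 2, the log2 fold of H2-Ob was 1.42 and missed the threshold (edgeR adjusted p = 0.157), and 8 of 9 tested members were called. Without control_diet 2 all 10 were called.

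Markers of dendritic cells, which also carry Ccr2 in part, were looked at beside this result. Cells with at least 2 of 8 dendritic markers (Flt3, Cd209a, Itgax, Zbtb46, Xcr1, Clec9a, Ccr7, Siglech) made up 5.08%, 12.3%, 0% and 0% of Ccr2 macrophages and at most 1.74% of the others. Left out, they left 8 members tested, all 8 called, with a median log2 fold of 2.09. With all cells it was 2.20 for 10 members, so these medians cover unlike sets. Without such cells, all macrophages of high_fibre 1 and 2 kept 18 of 39 and 32 of 55 H2-DMb2 UMIs. Those of control_diet 1 and 2 kept 36 of 43 and 3 of 3. For H2-Oa they kept 10 of 15, 8 of 21, 13 of 14 and 4 of 4 in this order of libraries. C1qa, the gate gene, was at 3895 to 5200 CPM in Ccr2 macrophages and 6402 to 6783 CPM in the others. Whether the Ccr2 effect differed between the diets was tested for each member, and edgeR called 0 of 10, where 18 of 9793 genes passed. At an unadjusted p under 0.05 there were 3 (H2-Aa, H2-Ab1 and H2-Eb1), against 532 of all genes, and DESeq2 was not run on this difference. H2-Ab1 came nearest, with a log2 difference of -0.42 in high_fibre against control_diet (edgeR adjusted p = 0.586).

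Class II pathway genes outside the members did not follow them into the Ccr2 subset: 2 of 21 tested were called higher and 4 lower. Ctss, cathepsin S, had 2050 CPM in Ccr2 macrophages and 1273 in the others (log2 fold 0.78, SE 0.08, edgeR adjusted p = 1.69e-12). The other lysosomal cathepsins were lower, Ctsb at 1148 against 2434 CPM, Ctsl at 161 against 337 CPM and Ctsd at 214 against 417 CPM. Of the class I genes 7 of 17 were higher and the other 10 did not pass, among the former the immunoproteasome subunit Psmb8 (351 against 241 CPM) and Psme1 (331 against 226 CPM). H2-T23 (378 against 264 CPM) and H2-K1 (1162 against 1010 CPM) are class I heavy chains and also rose. Of 16 interferon gamma response genes 2 were higher and 3 lower. Iigp1, an interferon-induced GTPase, had 0.447 against 22.1 CPM and Cxcl9, a chemokine, 2.14 against 12.3 CPM, while Ifngr1 had 342 against 289 CPM and the signalling inhibitor Socs1 28.7 against 14.5 CPM. The median log2 fold was -0.15, 0.27 and 0.17 for these lists, 2.20 for the members and -0.03 for all genes.

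Cd74 was followed most closely by the classical chains across the 24 sums of 6 gates and 4 libraries. Likeness was measured as Pearson's r of log2(CPM + 1) with Cd74 over these sums, which share libraries and depth, among 9154 genes with a mean of 20 CPM or more in at least 1 gate. H2-Ab1, H2-Aa and H2-Eb1 led (r = 0.995, 0.994 and 0.993). Apart from members, the most alike included Ly86, a partner of the RP105 receptor (r = 0.986), Pld4 (0.968), Fgd2, Cyp4f18, Scimp, Lat2, Spi1, 5430427O19Rik and BC035044 (0.959). Ciita ranked 7 (0.967), H2-DMb1 16 (0.958) and H2-DMa 24 (0.943), so r fell slowly over these ranks. The B cell members came far down, H2-DMb2 at rank 335, H2-Ob at 336 and H2-Oa at 385.

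Endothelial cells, fibroblasts, pericytes and T cells held class II transcripts at a low level, and in some gates a few cells carried nearly all of it. In T cells Cd74 stood at 38.5, 482, 1498 and 35.1 CPM in high_fibre 1, high_fibre 2, control_diet 1 and control_diet 2. In high_fibre 2, 1 T cell held 461 of the 515 class II UMIs, and in control_diet 1, 3 cells held 2187 of 2216. These 4 cells each had at least 2 dendritic markers, and without cells so marked Cd74 in T cells was at 38.5, 54.9, 18.7 and 32.0 CPM. In endothelial cells of high_fibre 2, 1 cell held 1586 of 2968 class II UMIs (53.4%). It had 26363 UMIs, 5 macrophage markers, 3 dendritic markers and 1 further endothelial marker, and it passed the endothelial gate with 2 UMIs.

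The shares of cells with a Cd74 UMI were alike in the types outside the immune gates. Endothelial cells had 12.7% to 23.1% positive at median depths of 4647 to 6354 UMIs, fibroblasts 13.8% to 24.3% at 11241 to 16135 UMIs and pericytes 10.8% to 23.2% at 4099 to 5365 UMIs. At 1000 UMIs in every cell these shares were 2.77% to 6.23%, 1.19% to 2.96% and 2.59% to 7.36%. In endothelial cells 24.6% to 37.3% of cells had 1 or 2 class II UMIs and at most 0.478% had 10 or more. C1q genes, made by macrophages, were present there beside Cd74. Per 100 Cd74 UMIs there were 44.7, 64.5, 52.3 and 52.5 C1qb UMIs in macrophages of high_fibre 1, high_fibre 2, control_diet 1 and control_diet 2. Endothelial cells had 35.6, 52.6, 41.8 and 61.9 without the dendritic-marked cells, fibroblasts 38.5, 56.7, 40.7 and 80.0, and pericytes 47.2, 47.7, 45.8 and 92.9. B cells had 0.142, 0.1602, 0.0916 and 0.104 C1qb UMIs per 100 Cd74 UMIs. No expression by these types is read from such shares. At equal depth endothelial cells and pericytes were above fibroblasts in each of the 4 libraries, whereas the shares of the unthinned cells overlapped.

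H2-DMa was high beside Cd74 in pericytes and T cells. In pericytes it was at 9.16, 9.33, 15.5 and 15.8 CPM (10 to 15 UMIs per library), above every endothelial library (0.921 to 6.17 CPM) and every fibroblast library (0.313 to 2.10 CPM). That is 13.6 to 71.4 H2-DMa UMIs per 100 Cd74 UMIs in pericytes, against 2.39 to 3.22 in macrophages and 1.95 to 2.44 in B cells. T cells had more of it, 15.1, 42.5, 55.3 and 21.9 CPM, and without dendritic-marked cells 39.1 to 100 per 100 Cd74 UMIs, from 5 to 16 H2-DMa UMIs per library. H2-Eb1 came to 55.6 to 107 per 100 Cd74 UMIs in pericytes and 37.9 to 73.7 in fibroblasts, against 25.0 to 30.1 in macrophages. No pericyte of the 117 to 311 per library held an H2-Oa or Ciita UMI, which allows a share of cells with a UMI of up to 2.56% in the smallest library. That limits detection at this depth and not the share of cells that express the gene, since Ciita was seen in only 25.8% to 31.7% of macrophages.

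Maternal diet was compared last, gate by gate, and these values are given as a description because the genes were chosen with this contrast known. In macrophages Cd74 averaged 11162 ± 2143 CPM in high_fibre and 11427 ± 471 in control_diet (SD, n = 2 libraries each), and the groups overlapped. In B cells it averaged 16087 ± 804 and 17844 ± 1987 CPM, overlapping as well. With edgeR 0 of 10 members were called in macrophages (background 0% of 11392 genes) and 0 of 10 in B cells (0.0565% of 7077), with 0 by DESeq2 in both. At an unadjusted p under 0.05 there were 0 in both, against 3.98% and 3.43% of all genes. Groups did not overlap for 2 members in macrophages and 1 in B cells, against 29.4% and 30.7% of all genes. Median log2 folds of high_fibre over control_diet were -0.04 and -0.12, against 0.00 for all genes in both gates. Without shared barcodes these member medians were -0.23 in macrophages and -0.01 in B cells. With a library left out they ranged from -0.22 to 0.10 in macrophages and from -0.32 to 0.18 in B cells.

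Among the gates of low level, pericytes, fibroblasts and endothelial cells had most members higher in high_fibre, and T cells had them lower on average. Pericytes had Cd74 at 66.0 and 68.4 CPM in high_fibre and at 24.9 and 22.2 CPM in control_diet, from 14 to 88 UMIs per library. The classical chains H2-Aa (20.2 and 28.8 against 4.15 and 7.91 CPM), H2-Ab1 (16.5 and 14.8 against 7.25 and 4.75 CPM) and H2-Eb1 (36.6 and 38.9 against 18.7 and 23.7 CPM) lay on the same side. H2-DMa lay on the other (9.16 and 9.33 against 15.5 and 15.8 CPM). Of the 5 members tested, edgeR called 2 higher, Cd74 and H2-Aa, with log2 folds of 1.51 (SE 0.26) and 2.12 (SE 0.46), where 0.101% of 8904 genes were called higher and 0.146% in all. The groups did not overlap for any of the 5, against 33.9% of all genes. With DESeq2 0 of 5 were called, and without high_fibre 2 or without control_diet 1 only Cd74 remained.

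Fibroblasts had Cd74 at 27.9 and 32.3 CPM in high_fibre and at 16.6 and 9.92 CPM in control_diet. Endothelial cells had it at 50.3 and 127 against 24.4 and 20.3 CPM, or at 50.4 and 60.2 against 24.5 and 20.3 CPM without dendritic-marked cells. Of the members tested with edgeR, 0 of 6 were called in fibroblasts (background 0.0222%) and 0 of 7 in endothelial cells (background 0.0164%). At an unadjusted p under 0.05 there were 4 and 1, against 6.57% and 5.41% of all genes, and DESeq2 called 1 and 0. Groups did not overlap for 5 and 6 members, against 35.6% and 33.5% of all genes, and the median log2 folds were 0.73 and 1.80. Without dendritic-marked cells edgeR called Cd74 (log2 fold 1.30) and H2-Aa (1.14) in endothelial cells, where 6 of 12172 genes were called, and the median was 1.14. Without high_fibre 1 the median was 2.21 in endothelial cells (9 members tested) and 0.84 in fibroblasts (6 tested). Without high_fibre 2 the fibroblast median was 0.65 (7 tested). The endothelial median fell to 0.64 without high_fibre 2, and H2-DMb1 went from 1.502 to -0.434 there. In T cells 0 of 5 members were called (background 0.0728%), with 0 at an unadjusted p under 0.05 (4.24% of all genes) and 0 by DESeq2. Their T cell groups overlapped and the median log2 fold was -1.64, which ranged from -4.08 without high_fibre 2 to 2.37 without control_diet 1 and was 0.60 over 2 tested members without dendritic-marked cells.

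Markers of some other cell types moved the same way in endothelial cells, fibroblasts and pericytes, those of red cells included. Other lists did so in part or not at all. T cell markers were higher in both high_fibre libraries for 1, 3 and 0 of 5 in these gates. Monocyte markers were so for 1 of 4 in each gate, and smooth muscle markers for 0, 2 and 0 of 3. Of 3 cardiomyocyte markers, 3 were lower in both high_fibre libraries in endothelial cells and 1 in fibroblasts, where 1 was higher. The 4 erythroid globin genes (Hba-a1, Hba-a2, Hbb-bs, Hbb-bt) were all higher in both high_fibre libraries in each of the 3 gates. They summed to 7697 and 2337 CPM against 1293 and 1519 in endothelial cells, 39.8 and 194 against 8.20 and 15.8 in fibroblasts, and 103 and 70.8 against 13.5 and 38.0 in pericytes. The 4 natural killer cell markers did so in fibroblasts (4.46 and 2.97 against 1.28 and 0.626 CPM summed) but 0 of 4 in endothelial cells and pericytes. Of 10 macrophage markers, 8 had their lowest high_fibre library above their highest control_diet library in endothelial cells, 8 in fibroblasts and 6 in pericytes, with none at 0 in any of these gates. All genes had 17.2%, 16.3% and 15.0% on that side without overlap. The summed level of the 10 was 129 and 228 CPM in high_fibre against 75.9 and 125 in control_diet in endothelial cells, 79.4 and 171 against 54.8 and 54.6 in fibroblasts, and 158 and 288 against 109 and 131 in pericytes. In fibroblasts of high_fibre 2, 1 cell of 25173 UMIs that passed the gate with 3 UMIs held 8 macrophage markers and 201 of the 1725 class II UMIs (11.7%), and it stayed in without dendritic-marked cells. Igkc, the kappa light chain of B cells, was at 15.4 and 18.2 against 5.29 and 3.57 CPM in endothelial cells, 7.57 and 7.01 against 3.50 and 1.98 in fibroblasts and 25.7 and 18.7 against 8.29 and 11.1 in pericytes. B cell markers as a whole, 7 genes, summed to 355 to 482 CPM in endothelial cells and fibroblasts and 1618 to 1728 CPM in pericytes, most of it Ebf1 (349 to 476 and 1588 to 1698 CPM). Of them 5, 6 and 2 separated the groups with high_fibre on top in endothelial cells, fibroblasts and pericytes, and none was at 0. Dendritic markers, 8 genes, summed to 63.4 to 78.5, 7.73 to 9.39 and 10.1 to 22.8 CPM, with Flt3 and Clec9a at 0 in fibroblasts and 6 of 8 at 0 in pericytes.

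The share of macrophages was also higher in both high_fibre libraries, while that of B cells overlapped between the groups. Macrophages were 16.6% and 15.9% of kept cells there and 14.2% and 11.4% in control_diet, and B cells were 5.57% and 3.45% against 3.80% and 2.66%. Class II UMIs came to 6400 and 5128 CPM of all kept cells in high_fibre against 4137 and 4325 CPM in control_diet. The part of these cells and of the markers above in the higher levels of the low gates was not tested.

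**Figure D4:**
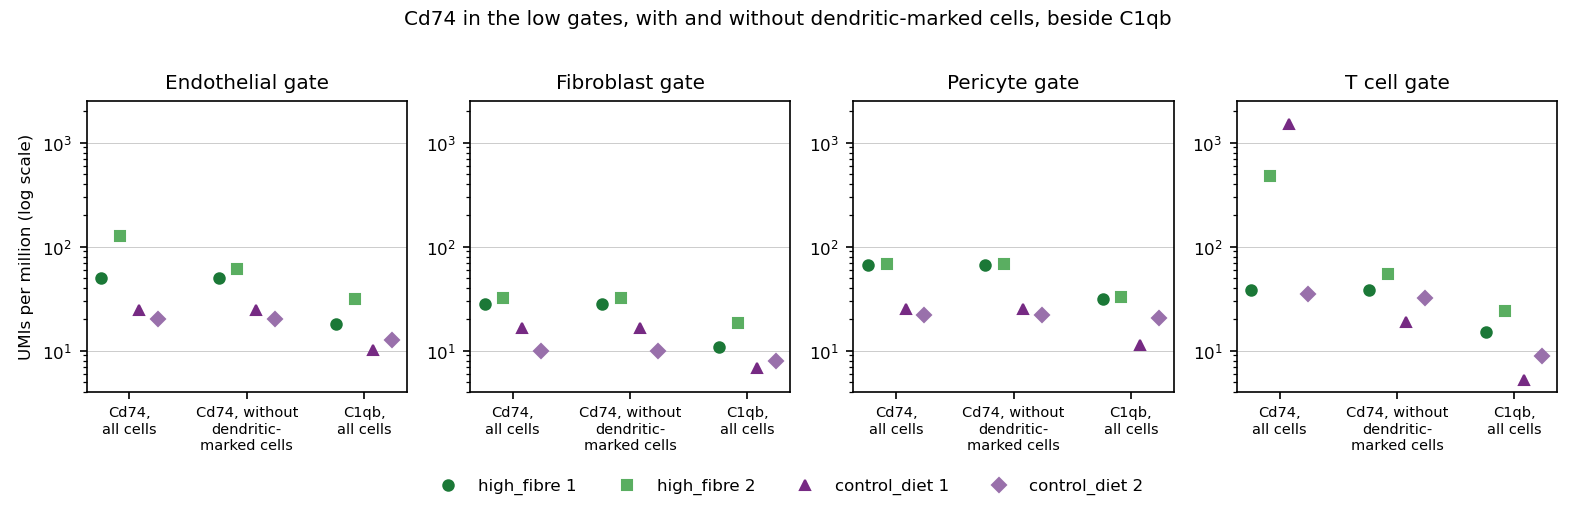
Cd74 in all cells, Cd74 without cells holding 2 or more dendritic markers, and the macrophage gene C1qb (UMIs per 1000000, log axis) in the endothelial, fibroblast, pericyte and T cell gates, with 1 point per library. The high Cd74 points of endothelial cells in high_fibre 2 and of T cells in high_fibre 2 and control_diet 1 drop once dendritic-marked cells are left out, and in endothelial cells, fibroblasts and pericytes C1qb orders the diet groups as Cd74 does.

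Among genes around the members, edgeR and DESeq2 called none by diet in the 6 gates: 0 of 12 to 21 tested class II pathway genes, 0 of 16 to 17 class I genes and 0 of 10 to 18 interferon gamma response genes. At an unadjusted p under 0.05 there were 0 to 3 per list and gate. The most was 3 of 19 class II pathway genes in fibroblasts, against 6.57% of all genes. Interferon gamma response genes had 2 of 11 in B cells and 2 of 13 in T cells, against 3.43% and 4.24%. In macrophages the 3 lists had 1 of 21, 0 of 17 and 1 of 17, against 3.98%. Genes of these lists with the smallest p in endothelial cells were Cxcl10 (11.9 CPM in high_fibre, 4.64 in control_diet, edgeR adjusted p = 0.149), Calr (300 and 401 CPM) and Ctss (5.98 and 3.09 CPM). In pericytes Calr, a chaperone of class I assembly, had the smallest p (305 against 454 CPM, edgeR adjusted p = 0.0802). In T cells Ifng, the gene of interferon gamma itself, averaged 72.7 CPM in high_fibre and 8.77 in control_diet (edgeR adjusted p = 0.999).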

How the data were processed

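Single-cell 3′ RNA libraries of 4 heart samples were deposited by the authors as UMI counts for each gene in each barcode. They come from Cell Ranger 3.1.0 on mm10, per the submitters' processing notes. The use of strand, the annotation and any pooling of libraries are not given in the sources used here. The members, gates and gene lists were chosen with earlier results of these data known. Barcodes with at least 500 UMIs, 250 genes and at most 20% mitochondrial UMIs were kept, and simulated doublets (2 per cell, 0.8% expected per 1000 barcodes) were used to remove 2.36% to 7.23% of barcodes. Counts were summed per library and gate, which makes the library the replicate, and genes passing filterByExpr (minimum count 10) were tested with edgeR 4.0.16 (R 4.3.3, quasi-likelihood, TMM), two-sided, with Benjamini-Hochberg adjustment over all genes tested and a threshold of 0.05. Diet was fitted without a block, and cell types with the library as a block. Alternatives were DESeq2 1.42.0, RLE scaling, no filter, other gates, no doublet removal and leaving out each library. Leaving out shared barcodes, keeping their deepest copy and leaving out cells with 2 or more dendritic markers were chosen after seeing the data. All 10 members are named, with those of the 10 genes most like Cd74 that are reported here (1 is not reported here) and, from each list, genes among the 4 with the smallest p in a comparison. Tested on simulated counts, 82% of 2-fold changes were called for diet in endothelial cells (12176 genes), 66% in macrophages (11392 genes), 75% for B cells over macrophages (10629 genes) and 55% for Ccr2 macrophages (9793 genes), and of 4-fold changes 90%, 96%, 96% and 85%. With 100 changed genes of each size, these fits also made 28, 22, 14 and 8 false calls. The simulated shares need not hold for the members. By diet in endothelial cells their log2 folds had SEs of 0.42 to 0.97, and Cd74 at 1.98 was not called. The limit stated for a count of 0 is 3 counts and covers counting error only. Sums and figures were made with Python 3.11.15, numpy 2.4.6, pandas 2.3.3, scikit-learn 1.9.0 and matplotlib 3.10.9.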

Additional observations from a re-analysis of the deposited data

How the results depend on the processing

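Of the counts of called members and levels by gate, 137 values under an alternative setting kept their call, 11 gained calls and 4 lost calls. With edgeR, the members called by diet in endothelial cells (0 as reported) were 1 with no filter on low counts, 2 with a gate at 4 UMIs, 6 with no doublet removal, 2 without cells holding 2 dendritic markers, and 0 to 5 when each library was left out in turn. In fibroblasts (0 as reported) they were 1 with DESeq2, 4 with no filter and 0 to 2 with a library left out. In pericytes (2 as reported) they were 0 with DESeq2, 1 with a gate at 1 UMI and 1 to 2 with a library left out. In T cells (0 as reported) they were 0 to 1 with a library left out, the 1 arising without high_fibre 2 or without control_diet 2. In endothelial cells, genes called over all genes tested went from 2 to 12 with DESeq2 and to 138 with no filter. Between B cells and macrophages, uncalled log2 folds near 0 changed sign: H2-DMa to -0.039 with no filter and -0.049 without shared barcodes, H2-Aa to 0.0065 with no doublet removal and 0.048 without the library block, and H2-Ab1 to 0.014 without the library block. With a library left out, H2-Aa ranged from -0.0661 to 0.071 and H2-Ab1 from -0.126 to 0.056. The cause of these changes was not tested. A fit with the replicate number as a block called 0 members in macrophages, B cells, endothelial cells, fibroblasts and T cells and 2 in pericytes. The number of members called thus did not change. Over all genes, calls went from 0 to 7 in macrophages, 4 to 33 in B cells and 2 to 0 in endothelial cells. They went from 3 to 14 in fibroblasts, 13 to 20 in pericytes and 4 to 26 in T cells. The correlation of same-numbered libraries' deviations was 0.01 to 0.18. With 2 libraries per diet these deviations mirror each other within a group, so this value cannot tell a pairing from none. No label says that a number marks anything shared, so the libraries were not paired. With 2 libraries per diet and 14 to 88 Cd74 UMIs per library in pericytes, depth limits the diet values of the low gates.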

Other observations

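Cells that passed no gate held class II transcripts at a level above B cells where they carried dendritic markers. The 49 ungated cells with at least 2 of 8 such markers (13, 18, 14 and 4 in high_fibre 1, high_fibre 2, control_diet 1 and control_diet 2) had a median depth of 15126 UMIs and a median of 761 class II UMIs. Their class II level was 53822, 46422, 49748 and 57992 CPM in the same order, and they held 73.4% of the class II UMIs of ungated cells. H2-DMa and H2-DMb1 stood at 947 and 940 CPM in these cells, above the means of macrophages and B cells, while H2-DMb2 and H2-Oa, both at 125 CPM, and H2-Ob at 107 CPM lay between the macrophage and B cell means. Ciita stood at 196 CPM. Ungated cells with macrophage markers by the same rule numbered 740 and held 94.5% of the class II UMIs of ungated cells. Their level was 12501 CPM, with a median of 1 class II UMI per cell. The dendritic-marked and macrophage-marked sets thus share cells.

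The 152 ungated cells with at least 2 monocyte markers (Ly6c2, Ccr2, Plac8, Chil3) had 15490 CPM of class II, with a median of 2 class II UMIs per cell. This set can share cells with those above. The 158 cells with neutrophil markers and the 205 with natural killer cell markers were low, at 303 and 110 CPM. These sets were read from 1 marker rule without a test.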
